A study of Rattus norvegicus with 8 samples.

Results

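The cytosolic ribosomal protein genes were followed in the lung tumors, normal lung and blood of rats treated with NNK. NNK is a carcinogenic nitrosamine of tobacco smoke that gives rise to lung tumors in this animal. A gene was counted as a member when the RefSeq accession of an mRNA probe mapped to a rat symbol beginning with Rpl or Rps and a number, or to Rplp0, Rplp1, Rplp2 or Rpsa. The kinases of ribosomal protein S6, whose symbols begin with Rps6k, were left out. This gave 76 genes, with 78 probes, of 13888 named genes on the array, which carries 15323 mRNA probes, 14274 of them (93.2%) with a name, among 24684 probes in all. By role, 41 probes of 40 genes belonged to the large 60S subunit, 4 probes of 3 genes to its P stalk and 27 probes of 27 genes to the small 40S subunit. The other 6 genes were the paralogs Rpl22l1 and Rps4y2 and the symbols Rpl36al1, Rpl37l1, Rps12l4 and Rpl27l2, whose older symbols are Rpl36al, Rpl37, RGD1561102 and RGD1561870. Rpl26, Rpl37a, Rps9, Rps16 and Rps18 were among the genes of the family that were not analysed here.

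All animals were male F344 rats, sampled in week 95. The lung groups were 3 lung tumors and 3 normal lung tissues, all from rats given NNK, so the normal lung had also been exposed to the carcinogen. The tumors are called matched to the normal tissues, although the labels name no animals. Blood was represented by the clot of whole blood from 1 control rat and from 1 NNK-treated rat. RNA was measured on an Arraystar rat lncRNA array, a 1-colour Agilent array that carries mRNA probes beside lncRNA probes. Signals are given below on the log2 scale after quantile normalization within a tissue, a step that gives every array the same distribution of signals.

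A cytosolic ribosome is built from ribosomal RNA and about as many distinct proteins as there are genes in this family, nearly all present in a single copy. The large subunit holds the site of peptide bond formation, the small subunit reads the mRNA, and the P stalk recruits the GTPases that drive each step. The mRNAs of this family are among the most abundant of a mammalian cell, and most begin at a C followed by an unbroken run of pyrimidines, the terminal oligopyrimidine or TOP tract, through which mTOR signalling controls their translation.

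The start sites were set beside the signals because of this shared tract. RefSeq promoter windows of the GRCr8 build were matched for 61 of the 76 genes. The first 5 transcribed bases were all C or T in 30 of the 61 (49.2%), against 4.75% of all 33469 windows. A stretch of 5 pyrimidines that began within 5 bases of the annotated start was found in 43 of the 61 (70.5%), against 24.4% of all windows. The hexamer CTTTCC, or GGAAAG on the other strand, lay somewhere in the 300-base window of 49.2% of the genes and of 26.4% of all windows, and it can overlap the tract. Below are the 30 bases before and the 20 bases from the start of 8 genes. The first 4 had among the larger tumor signals relative to normal lung and carry a tract, Rps12 and Rpl6 had larger signals and carry none at the annotated start, and Rps27 and Rpl35a carry a tract and did not pass the test in lung. Capitals mark the pyrimidine run.
Rpl12 (chr3:36661910-36661959, plus strand): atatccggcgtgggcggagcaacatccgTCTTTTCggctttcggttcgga
Rpl35 (chr3:43165902-43165951, minus strand): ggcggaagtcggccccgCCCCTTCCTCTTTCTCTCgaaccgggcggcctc
Rpl10a (chr20:6390503-6390552, plus strand): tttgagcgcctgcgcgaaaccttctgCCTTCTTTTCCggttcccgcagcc
Rps13 (chr1:180009641-180009690, minus strand): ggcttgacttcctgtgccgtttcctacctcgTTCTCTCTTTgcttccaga
Rps12 (chr1:23500045-23500094, plus strand): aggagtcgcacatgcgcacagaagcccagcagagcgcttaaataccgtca
Rpl6 (chr12:41011671-41011720, minus strand): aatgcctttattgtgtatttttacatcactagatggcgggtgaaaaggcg
Rps27 (chr2:177964587-177964636, minus strand): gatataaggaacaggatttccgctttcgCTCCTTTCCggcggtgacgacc
Rpl35a (chr11:81235002-81235051, minus strand): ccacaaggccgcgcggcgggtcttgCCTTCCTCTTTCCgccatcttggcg

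The arrays were compared with each other before any group was tested. Over probes printed as 3 spots, the mean squared difference between 2 arrays was divided by the value that spot-to-spot variation alone would give, after a trend with signal was removed. The 3 normal lung arrays gave ratios of 0.464 to 0.788 with one another, and tumor arrays 2 and 3 gave 0.464. Ratios under 1 are below the spot noise, so these arrays may each stand for 1 sample, and the counts of calls over the family, its roles and the gene lists are also given with them counted once. The other counts in lung, by slide, fold, brightness and start site, treat each array as a sample. Tumor array 1 gave 3.01 and 3.34 with the other tumors, and normal against tumor arrays gave 8.33 to 12.7. It shared a scan start, taken as slide 1, with the 3 normal arrays, whereas tumor arrays 2 and 3 shared slide 2 and both blood arrays slide 3. Nothing in the labels says that the replicates were separate animals, so the p-values measure only the spread between these arrays. The scanner software marks spots as outliers when their pixels or repeats are uneven, and it marked 6.67% to 9.33% of the member probes above background on the normal arrays and 14.7% to 23.7% on the tumor arrays. Over all mRNA probes above background these shares were 3.91% to 7.66% and 17.8% to 29.0%. No member spot was marked as saturated on any array. The labelled tissues carried their defining markers, since the summed signal of 15 lung epithelium probes was 2072040 to 2279420 in lung and 61758 and 62887 in blood, and that of 13 erythroid probes was 277151 to 468610 and 3647330 and 3783580. Lung and blood were normalized apart, so these sums are not on a common scale.

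Most ribosomal protein genes had a higher signal on the lung tumor arrays than on the normal lung arrays, by a small amount, and the number called rested on whether near-identical arrays were counted separately. With the marked spots left out, 60 member probes could be tested, of which 44 rose and 1, Rps4y2, fell. Over all mRNA probes tested the share called was 32.6% for rises and 33.4% for falls. The members that rose made up 73.3% of those tested. Their median log2 fold change was 0.39, where the median over all mRNA probes was -0.00. With the marked spots kept, 75 members were tested, 56 rose and Rps4y2 again was the single fall, with a median of 0.41. The shares of all mRNA probes were then 33.4% for rises and 32.8% for falls. These calls used limma with Benjamini-Hochberg adjustment over all probes tested, at an adjusted p of at most 0.05. When the near-identical arrays were counted once, 0 of the 60 members passed as a rise in limma, against 5.89% of all mRNA probes. Rps4y2 alone passed as a fall, against 726 of 8504 mRNA probes. At an unadjusted p of 0.05, 11 of the 60 (18.3%) rose, against 17% of all mRNA probes, so the share was near the background. The median stayed at 0.38, against 0.02 over all mRNA probes, and 55 of the 60 had a fold change above 0. In that comparison 1 normal sample stood against 2 tumor samples, and the lone normal sample was assumed to vary like the tumors. With marked spots kept it called 4 rises among 75 members (5.33%), against 6.48% of all mRNA probes, and these were Rpl12, Rpl35, Rps13 and Rpl4.

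The higher median was seen on each tumor array. Against the mean of the normal arrays, the members stood higher by a median of 0.41 on tumor array 1, 0.43 on array 2 and 0.40 on array 3. On these arrays 70, 69 and 67 of the 75 members lay above the normal mean. Among the normal arrays the same medians were -0.01, 0.00 and 0.01. Every tumor array lay above every normal array for 65 of the 75 members and below for 3, whereas over all mRNA probes such a separation was found for 37.4% above and 36.2% below. On slide 1 alone, where tumor array 1 is compared with the normal arrays scanned with it, the median was 0.38, against 0.08 over all mRNA probes. Calls are not given for it, since 1 tumor array stood there against normal arrays that differ by less than spot noise. With the slide as a block the difference again came from tumor array 1 against the normal arrays, so its calls are not given either. There 51 of 56 members had a fold change above 0.

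**Figure D1:**
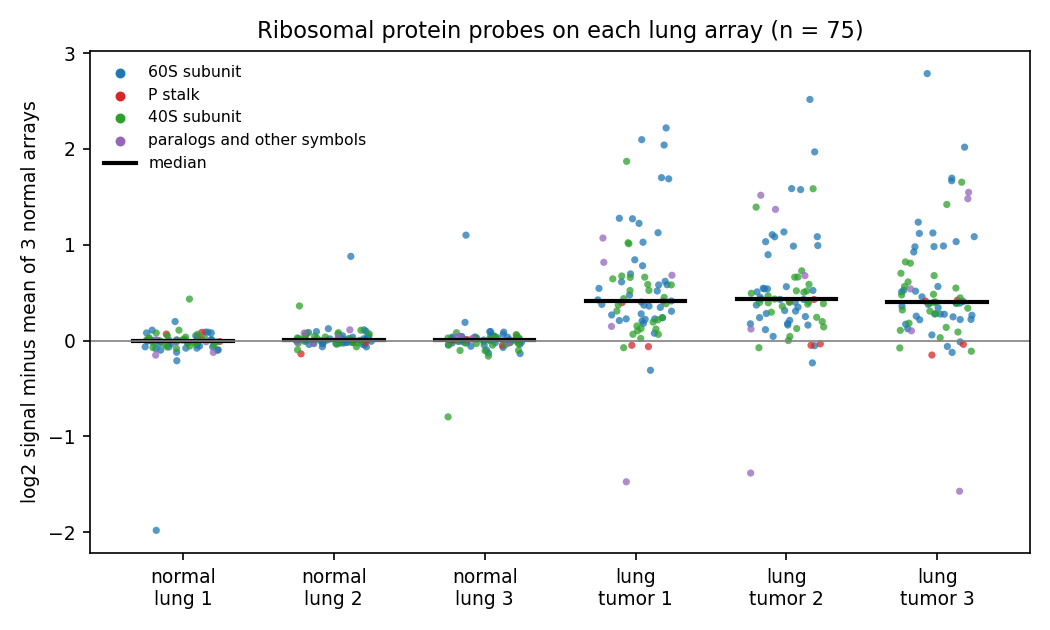
Each point is 1 of 75 ribosomal protein probes on 1 lung array, with the log2 signal minus the mean of the 3 normal arrays on the vertical axis, marked spots kept, colours for the role in the ribosome and a black line for the median. The medians of the tumor arrays lie between 0.40 and 0.43, and the low point in every tumor column is the S4 paralog Rps4y2.

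In the 60S subunit, 25 of 30 probes rose and none fell (31 of 39 with marked spots kept), and the median was 0.39 (0.44 with marked spots kept). With each array treated as a sample, 32.6% of all mRNA probes rose, and 33.4% with marked spots kept. Counted once, 0 of the 30 passed in limma, 7 at an unadjusted p of 0.05, and 3 of 39 with marked spots kept. Over all mRNA probes these counted-once shares were 5.89%, 17% and 6.48%. The largest rise belonged to Rpl6, a surface protein of the large subunit. Its signal was 9.94, 10.15 and 10.10 on the normal arrays and 11.75, 12.58 and 12.85 on the tumor arrays. The groups did not overlap, and tumor array 1 was the lowest of the tumors. The log2 fold change was 2.10 ± 0.27 (SE, adjusted p = 0.00274), and 2.33 ± 0.29 with 1 marked tumor spot kept. Counted once, the adjusted p was 0.0817.

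Rpl10a, part of the L1 stalk at the exit side of the ribosome, measured 15.99, 15.85 and 15.81 in normal lung and 17.16, 17.02 and 17.01 in tumor. All tumor arrays lay above all normal arrays, with a fold change of 1.18 ± 0.08 on the log2 scale (adjusted p = 9.84e-05). Rpl32 stood at 16.23, 16.25 and 16.30 against 17.48, 17.34 and 17.25, a rise of 1.10 ± 0.08 (adjusted p = 0.000123). Rpl18 stood at 15.98, 15.99 and 16.06 against 17.13, 17.04 and 17.09, a rise of 1.08 ± 0.06 (adjusted p = 3.98e-05). The tumor arrays of these 3 genes stood closer to each other than to any normal array. With the near-identical arrays counted once, none of the 3 passed, at adjusted p values of 0.0590, 0.0679 and 0.0626.

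Rpl10, which joins the large subunit late in its assembly, had the third largest fold change of the core genes tested, at 1.19 ± 0.97, and did not pass (adjusted p = 0.320). Its probe was dim and its signals, 3.09, 5.94 and 6.17 in normal lung and 7.28, 5.50 and 5.99 in tumor, overlapped. The brighter Rpl22 and the dim Rpl27a both rose 2-fold, by 1.07 ± 0.14 and 1.06 ± 0.12 (adjusted p = 0.00282 and 0.00073).

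Several of the largest 60S differences were carried by spots that the scanner software had marked, and these genes were chosen after their values were seen. Rpl12, at the base of the P stalk, stood at 12.39, 12.54 and 12.41 in normal lung and at 14.54, 14.42 and 14.46 in tumor. With its spots marked on all 3 tumor arrays it could be tested only when marks were ignored, and it then rose by 2.03 ± 0.07 (adjusted p = 9.34e-06), a 4.08-fold difference. Rpl4, which lines the exit tunnel, went from 12.76, 12.79 and 12.92 to 14.86, 14.40 and 14.52, a rise of 1.77 ± 0.13 (adjusted p = 0.000143). Rpl35, at the tunnel exit, went from 13.88, 13.95 and 13.91 to 15.62, 15.50 and 15.58, a rise of 1.65 ± 0.06 (adjusted p = 9.44e-06). The spots of Rpl4 and Rpl35 were marked on all 6 lung arrays, those of normal lung included. The part of the marks in these values was not tested.

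At the other end, Rpl34 was the lowest 60S probe. It measured 17.49, 17.43 and 17.31 in normal lung and 17.10, 17.17 and 17.28 in tumor, so all tumor arrays lay below, and the fold change of -0.22 ± 0.08 did not pass (adjusted p = 0.0535). It passed as a fall of -0.27 without tumor array 3 (adjusted p = 0.0465). Rpl35a overlapped between the groups, at 17.51, 17.36 and 17.40 against 17.65, 17.37 and 17.41 (0.05 ± 0.10, adjusted p = 0.646). Rpl5, which carries the 5S ribosomal RNA and with Rpl11 can bind Mdm2, overlapped too, at 16.89, 16.93 and 16.97 against 17.17, 16.98 and 16.87 (0.07 ± 0.09, adjusted p = 0.498). With the slide as a block, which sets tumor array 1 against the normal arrays, the fold change of Rpl5 was 0.24. The probe of Rpl11 was above background on none of the 6 lung arrays and that of Rpl36a on 2 of them, so neither gave a comparison.

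The P stalk was divided, and none of its 4 probes passed with the near-identical arrays counted once, at an adjusted or an unadjusted p of 0.05 in limma. Rplp0, the scaffold of the stalk, measured 17.84, 17.62 and 17.81 in normal lung and 18.17, 18.16 and 18.18 in tumor and rose by 0.41 ± 0.08 (adjusted p = 0.00517). Rplp2 measured 17.81, 17.81 and 17.83 against 18.21, 18.25 and 18.23 and rose by 0.41 ± 0.05 (adjusted p = 0.000758). Both were higher on all 3 tumor arrays. Their partner Rplp1 did not pass on either of its probes. Its probe with 10 printed spots gave 18.18, 18.16 and 18.16 against 18.11, 18.13 and 18.13 (-0.06 ± 0.05, adjusted p = 0.296), and its probe with 1 spot gave -0.08 ± 0.06 (adjusted p = 0.282). On the probe with 10 spots all tumor arrays lay below all normal arrays. Its single spots had an SD of 0.05 to 0.10 within an array, which is wider than the spread of a mean over 10 spots. The difference between Rplp1 and the other stalk genes was not itself tested. A second gene with 10 spots, Rpl13a of the large subunit, rose on both of its probes, by 0.29 ± 0.07 over 10 spots and by 0.38 ± 0.08 on 1 spot (adjusted p = 0.0178 and 0.00789).

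In the 40S subunit, 16 of 23 probes rose and none fell (20 of 27 with marked spots kept), and the median was 0.39 (0.42). With each array treated as a sample, 32.6% of all mRNA probes rose, and 33.4% with marked spots kept. Counted once, 0 of the 23 passed in limma, 3 at an unadjusted p of 0.05, and 1 of 27 with marked spots kept. Over all mRNA probes these counted-once shares were 5.89%, 17% and 6.48%. Rps12, a protein of the beak of the small subunit, was the largest of those tested with marks left out. Its signals were 15.75, 15.88 and 15.83 in normal lung and 16.83, 17.21 and 17.24 in tumor, with no overlap, and it rose by 1.27 ± 0.13 (adjusted p = 0.000482). Rps13, chosen after its values were seen, had marks on its 3 tumor spots. It went from 14.50, 14.49 and 14.43 to 16.34, 16.06 and 16.13, a rise of 1.70 ± 0.09 with marks ignored (adjusted p = 3.46e-05).

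Rps6, the substrate of the S6 kinases, measured 17.58, 17.61 and 17.44 against 17.69, 17.67 and 17.68. The tumor arrays lay above the normal arrays, and the fold change of 0.14 ± 0.07 did not pass (adjusted p = 0.112). It passed under a 75th percentile shift (0.23, adjusted p = 0.0267) and under normexp background correction (0.25, adjusted p = 0.0122). Rps27 stood at 17.41, 17.46 and 17.40 against 17.49, 17.42 and 17.34, with a difference of -0.00 ± 0.06 (adjusted p = 0.966), and Rps29 at 17.95, 17.95 and 17.91 against 17.96, 17.98 and 17.97, with 0.03 ± 0.05 (adjusted p = 0.574). Rpsa, also known as the precursor of a laminin receptor, had 1 normal array apart from the rest. Its signals were 9.60, 9.52 and 8.37 in normal lung and 9.09, 9.09 and 9.05 in tumor (-0.09 ± 0.35, adjusted p = 0.839). Without normal array 3 it passed as a fall, at -0.48 (adjusted p = 0.00458).

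**Figure D2:**
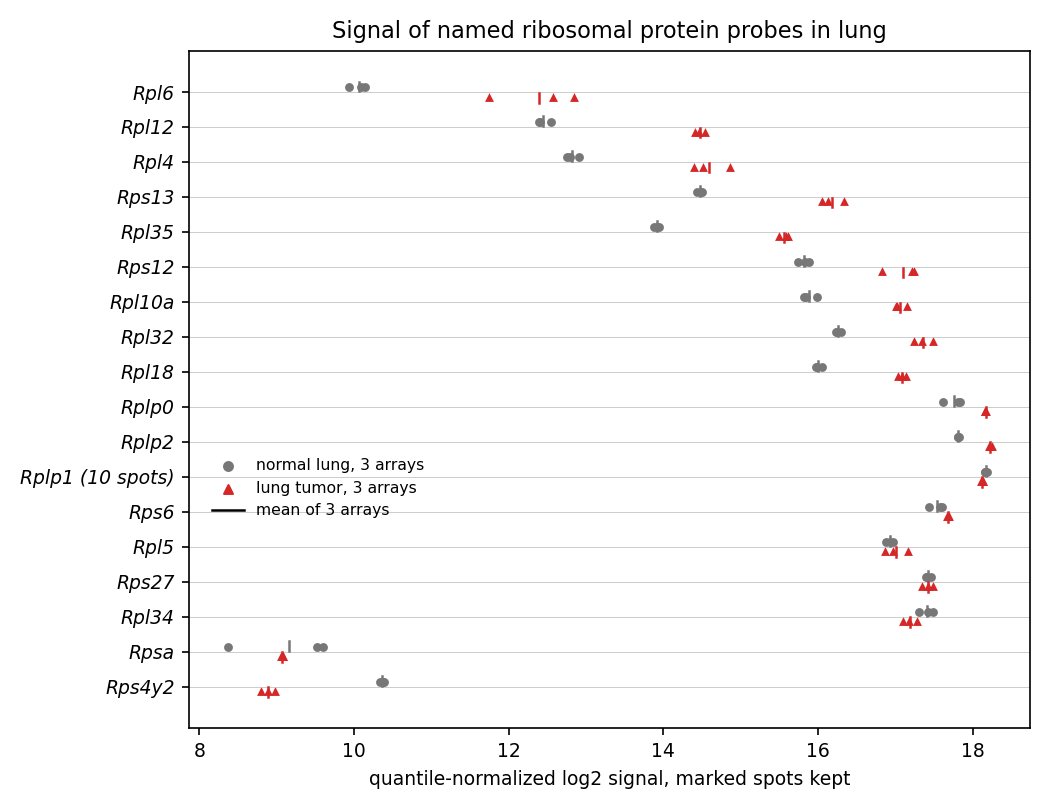
Quantile-normalized log2 signal of named ribosomal protein probes on the 3 normal lung arrays (grey circles) and the 3 lung tumor arrays (red triangles), marked spots kept, with a short line at each mean. The means of tumor and normal arrays differ by 1.08 or more for the upper 9 genes and by 0.41 or less for the bright genes from Rplp0 to Rpl34. The tumor mean is the lower one by 1.48 for Rps4y2, and by a smaller amount for Rpl34, Rpsa, Rplp1 and Rps27.

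The paralogs moved apart. Rps4y2, a copy of the small-subunit gene Rps4x, stood at 10.37, 10.34 and 10.38 in normal lung and at 8.89, 8.98 and 8.79 in tumor. It fell by 1.48 on the log2 scale (SE 0.07, adjusted p = 2.54e-05), and it still passed with the near-identical arrays counted once (adjusted p = 0.0428). Rps4x itself rose by 0.19 ± 0.05 (adjusted p = 0.0149). Rpl22l1, the paralog of Rpl22, had marks on all 6 spots. It went from 12.55, 12.75 and 12.72 to 13.75, 14.05 and 14.16, a rise of 1.31 ± 0.13 with marks ignored (adjusted p = 0.000376). Rpl36al1, also marked on all 6 arrays, went from 14.20, 14.47 and 14.39 to 15.17, 15.87 and 15.90, a rise of 1.29 ± 0.22 (adjusted p = 0.00362).

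Rps12l4 was dim but steady, at 6.35, 6.40 and 6.33 against 7.04, 7.04 and 6.90, and rose by 0.63 ± 0.06 (adjusted p = 0.00047). Rpl37l1 was among the bright probes, at 17.65, 17.65 and 17.68 against 17.81, 17.78 and 17.76, and did not pass (0.12 ± 0.05, adjusted p = 0.0658). It passed in 5 of the other settings, among them the 75th percentile shift (0.22, adjusted p = 0.0349). The probe of Rpl27l2 was above background on none of the lung arrays. Ribosomal protein genes have many near-identical copies in the genome, and signal from such a copy could not be set apart, since probe sequences were not used here.

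The size of the difference varied with the brightness of the probe, though not evenly over the whole range. Of the 75 members tested with marked spots kept, 55 had a mean log2 signal above 16, and 4 of these were at least 2-fold higher in tumor, against 10 of the 20 at or below 16. Above 17, 30 of 42 members rose with a median of 0.31 and a highest value of 0.68. Between 16 and 17, 11 of 13 rose with a median of 0.58, and between 14 and 16, 5 of 6 with a median of 1.19. Between 12 and 14, 4 of 5 rose with a median of 1.31. All members between 14 and 16, and all between 12 and 14 except Rpl22, had marks on at least 2 tumor arrays. They could be tested only with marks ignored, so brightness and marking coincided in these bands. The part of the marks in their higher medians was not tested. The dimmer members did not continue this order, with 5 of 7 rising, 1 falling and a median of 0.44 between 8 and 12, and 1 of 2 rising with a median of 0.91 below 8. Spearman's rho between fold change and mean signal was -0.52 and Pearson's r -0.25 over the 75 members, and Spearman's rho was 0.05 over the 11357 other mRNA probes, both as descriptions across probes that share the same 6 arrays. Other mRNA probes above 17, of which there were 108, were higher in tumor in 24.1% and lower in 48.1%, with a median of -0.16. Between 14 and 16 they were higher in 39.5%, and between 12 and 14 they were higher in 38.5% and lower in 31.6%. Their medians were -0.02 between 16 and 17, 0.06 between 14 and 16 and 0.07 between 12 and 14. The edges of these bands were chosen after the values were seen. In all, 7 of the 60 members tested with marks left out rose at least 2-fold (11.7%), against 11.5% of all mRNA probes, so the share was that of the background. With marks kept it was 14 of 75 (18.7%), against 11.7%. Rps4y2 was the single fall of that size, against 16.8% and 15.3% of all mRNA probes.

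**Figure D3:**
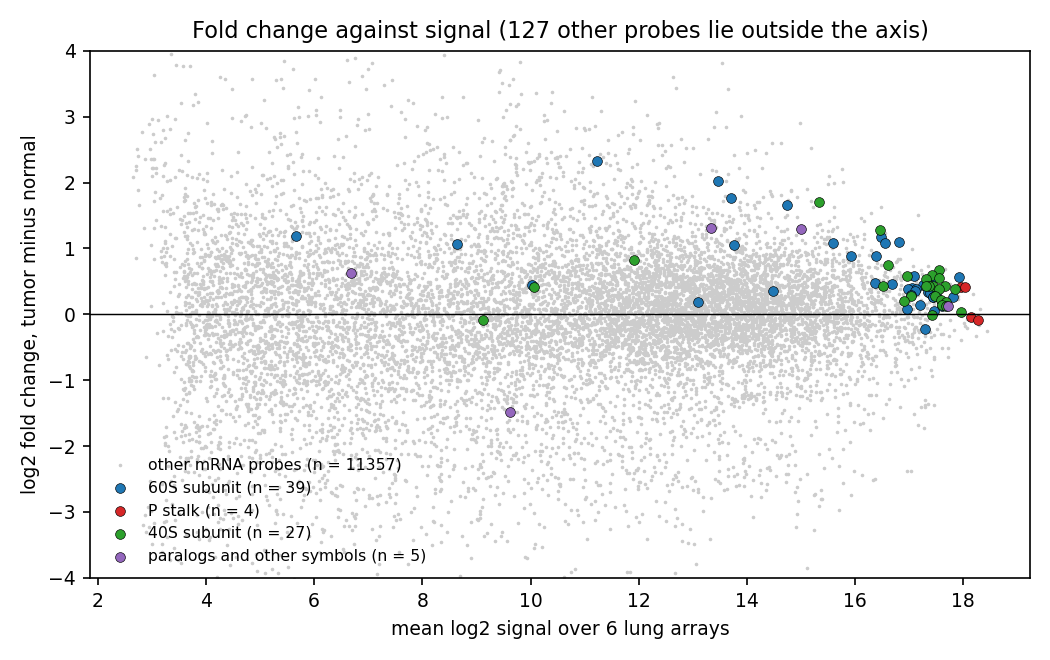
Log2 fold change of tumor over normal lung against the mean log2 signal over the 6 lung arrays, marked spots kept, with 11357 other mRNA probes in grey and the 75 ribosomal protein probes coloured by role. The members crowd at signals above 16 and a little above 0, the highest fold changes lie at lower signals, and 127 grey points lie beyond the vertical axis.

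Ranks within an array do not depend on normalization between arrays. Quantile normalization keeps the order of signals within an array, so these ranks largely restate the values above and are not a separate check. Among the 200 brightest mRNA probes, 38, 39 and 40 were ribosomal protein probes on the normal lung arrays and 51, 53 and 53 on the tumor arrays. The median member stood at the 98.7th percentile of mRNA probes in normal lung and at the 99.4th in tumor. In blood 24 of the 200 brightest were members in the control and 41 in the NNK-treated rat.

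**Figure D4:**
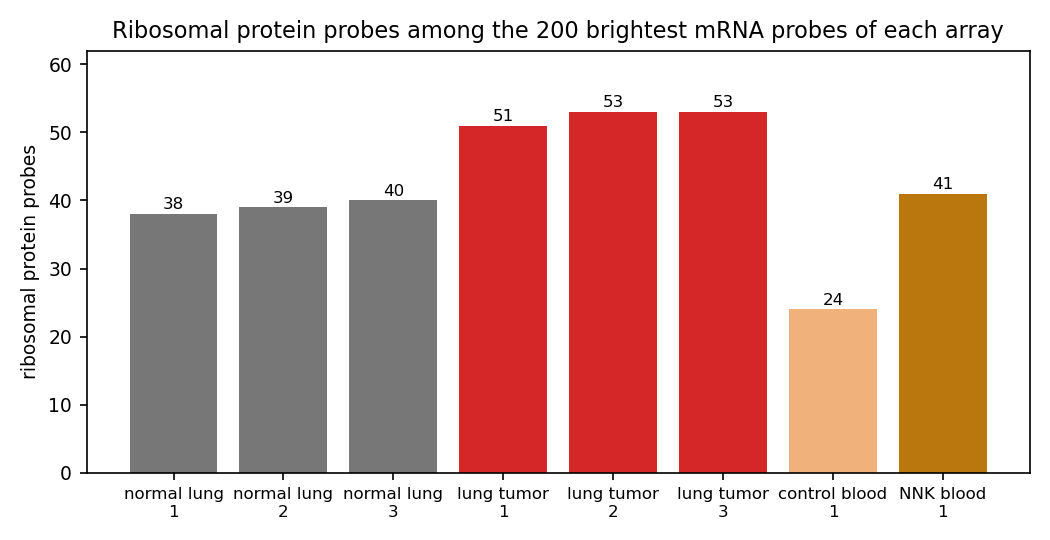
Number of ribosomal protein probes among the 200 brightest mRNA probes of each array, by processed signal without normalization between arrays. The 3 tumor bars (51 to 53) stand above the 3 normal lung bars (38 to 40), and the bar of NNK blood (41) above that of control blood (24).

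Genes with and without a tract were then counted. Of the genes with a matched window and a test with marked spots kept, 32 of 42 with a tract rose, with a median of 0.44, and 11 of 16 without one rose, with a median of 0.40. Over all mRNA probes 33.4% rose in that test, which treats each array as a sample. With near-identical arrays counted once, 4 of the 75 members rose (5.33%), against 6.48% of all mRNA probes. Of the windows printed above, Rpl12 and Rps27 both carry a short run that begins 2 bases before the start, and their fold changes were 2.03 and -0.00.

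In blood each group was 1 array, so differences have no replicate check and no test was made. Of 73 members compared, 17 stood higher in the NNK-treated rat by a factor of 2 or more, and 1 stood as far below. The members that were higher made up 23.3%, against 26% of all mRNA probes, and the lower share over all mRNA probes was 17.8%. The median difference was 0.56 on the log2 scale, against -0.01 for all mRNA probes, and 57 of the 73 lay above 0. The sign of this median rested on the scaling. After a 75th percentile shift it was -0.40, with 4 members higher and 14 lower by that factor. All mRNA probes then shifted by -0.18, and relative to that shift the members stood at -0.22. After it 21 of the 73 members lay above 0, so the differences of single genes rested on the scaling too. The gene values given below are those of quantile normalization within blood. Quantile normalization over all 8 arrays gave a median of 0.33, and the deposited normalized values gave 0.35.

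The largest difference was that of Rpl18, at 11.86 in control blood and 13.95 in NNK blood, 4.24-fold higher. Rpl5 followed, at 11.23 and 13.26 (4.08-fold), and Rpl8, a core protein of the large subunit, at 12.91 and 14.90 (3.97-fold). Rps3, at the mRNA entry of the small subunit, stood at 12.22 and 14.10 (3.68-fold), Rpl3 at 11.39 and 13.14 (3.37-fold) and Rps21 at 14.21 and 15.88 (3.18-fold). Of these 6, Rpl18 also rose at least 2-fold in the lung tumors, whereas Rpl5 and Rps21 did not pass there. Among the lowest were Rpl22l1, at 10.10 in control and 8.44 in NNK blood (a log2 difference of -1.67), Rpl28 (-0.80), Rps4y2 (-0.53), Rps29 (-0.51) and Rpl31 (-0.31). Rpl22l1 was thus lower in NNK blood and higher in tumor, and Rpl28 and Rpl31 rose in tumor by 0.44 and 0.27 (adjusted p = 0.00618 and 0.0147).

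All 4 probes of the P stalk were higher in NNK blood, by a median of 0.52, close to the 0.56 of the family. Rplp0 stood at 17.59 and 17.69, Rplp2 at 17.49 and 18.10 and Rplp1 at 17.92 and 18.38 on its 10-spot probe, so Rplp0 differed least. Rps6 stood at 14.03 and 15.23 (2.30-fold) and Rpsa at 9.45 and 10.11 (1.59-fold). Apart from Rpl18, other core genes with large differences in lung were spread in blood, with Rpl12 at 11.46 and 11.65, Rps12 at 16.45 and 16.73, Rpl10a at 13.62 and 13.97, Rpl35 at 14.81 and 15.30, Rps13 at 12.55 and 13.06, Rpl32 at 14.94 and 15.46 and Rpl4 at 13.21 and 13.94. Their log2 differences ran from 0.19 for Rpl12 to 0.73 for Rpl4, around the median of the family. Rpl10, Rpl11, Rpl27a and Rpl27l2 were above background on neither blood array. Rps12l4 was above background in NNK blood alone, at 4.29 against 3.56, which leaves a bound of at least 1.00-fold.

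**Figure D5:**
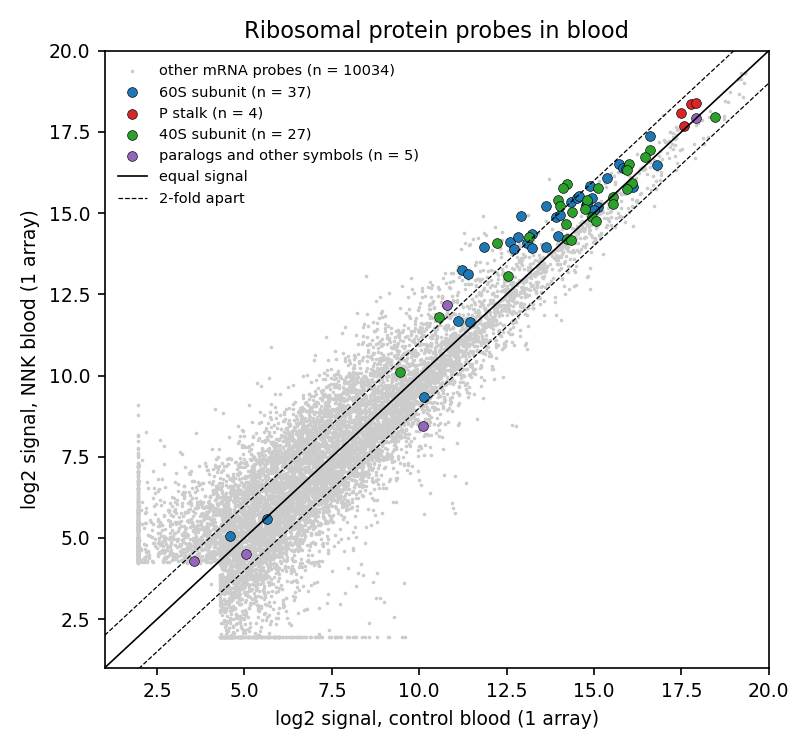
Log2 signal of each probe in NNK blood against control blood, 1 array each, with 10034 other mRNA probes in grey, 73 ribosomal protein probes coloured by role, a solid line at equal signal and dashed lines 2-fold apart. Of the members, 17 lie above the upper dashed line, led by Rpl18, and 1, Rpl22l1, lies below the lower one.

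Genes that belong to the ribosome or act beside it were counted from lists. Fau, a ribosome protein outside the naming rule that is made as a fusion to a ubiquitin-like protein, rose in tumor by 0.34 ± 0.06 (adjusted p = 0.00451). In blood it stood 0.17 higher in the NNK-treated rat.

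Of the elongation factors 1 of 6 probes rose, Eef1b2, an exchange factor of elongation factor 1, by 0.63 ± 0.08 (adjusted p = 0.00104), and 4 of 9 with marks kept. Of the initiation factors 8 of 18 rose and 2 fell. Eif3h and Eif3a, subunits of the complex that holds the small subunit, rose by 0.67 and 0.63, whereas Eif4g2 and Eif2b2 fell by 0.53 and 0.26 (adjusted p = 0.00115, 0.00292, 0.0126 and 0.0213). Over all mRNA probes 32.6% rose and 33.4% fell. Counted once, no probe of either list passed with marks left out, and 1 of each was higher at an unadjusted p of 0.05 in limma.

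Of the ribosome biogenesis genes 23 of 45 probes rose and 6 fell, with a median of 0.31. Polr1g, of the RNA polymerase I machinery, rose by 1.48, whereas Ubtf, which also serves that polymerase, fell by 0.74 and the processing factor Rrp15 by 0.89 (adjusted p = 0.000638, 0.000542 and 0.0182). Taf1a, of the same machinery, passed as a rise too (adjusted p = 0.00501), but its signals of 2.71, 2.74 and 2.05 in normal lung were not well above background and those in tumor, 4.16, 3.68 and 3.69, were, so that no fold is given. Counted once, 0 of 44 probes of this list passed in limma, with 9 higher and 2 lower at an unadjusted p of 0.05. Over all mRNA probes, 1445 of 8504 were higher and 1658 lower at that unadjusted p. In blood 40 of 57 probes of this list were at least 2-fold higher in the NNK-treated rat, against 26% of all mRNA probes. The median was 1.42, against -0.01 over all mRNA probes. These values are from quantile normalization within blood, with 1 array per group and no test. A probe entered when well above background on 1 of the 2 arrays, so a fold can rest on a control signal near background. Rrp15 was such a probe, not above background in control blood at 3.97 and above it in NNK blood at 5.23. Under a 75th percentile shift the median of the ribosomal protein family was -0.40, and that scaling is not given for this list. The mitochondrial ribosome, a separate particle, had 26 of 41 probes higher and 2 lower in tumor, with a median of 0.50, led by Mrpl54 at 1.99 and Mrps18b at 1.71, and its falls were Mrpl38 and Mrpl40, by 0.48 and 0.21 (adjusted p = 0.00094, 1.28e-05, 0.0239 and 0.0313). Counted once, 2 of its 41 probes passed as rises, against 5.89% of all mRNA probes, so the share was near the background. With each array treated as a sample, 32.6% of all mRNA probes rose and 33.4% fell. Of the S6 kinases and the regulators of cap-dependent translation, 2 of 6 probes rose, Rps6ka1 and Eif4ebp1 by 0.28 each, and 2 fell, Mtor by 0.30 and Tsc2 by 0.43 (adjusted p = 0.0140, 0.0496, 0.00517 and 0.0421). Counted once, none of these 6 passed, at an adjusted or an unadjusted p of 0.05.

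Markers of cell types differed between the lung groups too. In tissue RNA, fewer cells of a type and less RNA per cell cannot be told apart. Endothelial markers fell on 4 of 4 probes tested (Tek by 2.74 and Esam by 0.56 on the log2 scale), and their summed normalized signal was 280439 to 289141 on the normal arrays and 77738 to 82744 on the tumor arrays. Erythroid markers fell on 9 of 9 (Hbb-b1 by 0.50, Hbb by 0.57), with sums of 458399 to 468610 and 277151 to 309653. T cell markers fell on 8 of 12 (Cd8a by 1.42, Cd247 by 1.17), with sums of 38799 to 40632 and 21092 to 23852. Proliferation markers rose on 7 of 10 probes and fell on 1 (Rrm2 rose by 1.29 and Pcna by 0.18), with sums of 93658 to 97193 and 140362 to 151567. Counted once, 3 of the 4 endothelial, 6 of the 9 erythroid and 1 of the 12 T cell probes passed as falls. Of the 10 proliferation probes 4 passed as rises. Over all mRNA probes 726 of 8504 passed as falls and 501 as rises, so the T cell share was near the background.

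Of the other marker lists, liver secreted proteins fell on 11 of 12 probes and rose on 1, Fgg, by 0.75, and Kng1, tested with marks ignored, rose by 2.45. Their summed signal was higher in tumor, at 87812 to 90342 on the normal arrays and 134409 to 142360 on the tumor arrays. Platelet markers fell on 3 of 4 (Gp1bb by 1.91), with Pf4 at 0.98 when marks were ignored, and their sum too was higher in tumor, at 5002 to 5320 and 7865 to 9144. Neutrophil markers fell on 3 of 5, and with marks ignored S100a8 stood at -2.12 and Cxcr1 at 0.53, with sums of 19937 to 20800 and 10440 to 12676. Lung epithelium markers rose on 7 and fell on 4 of 12 (Sftpa1 by 0.26, with Scgb1a1 at -0.07 not passing), and their sum was lower in tumor, at 2239840 to 2279420 and 2072040 to 2156780. B cell markers rose on 3 and fell on 1 of 6 (Fcrla rose by 0.79 and Blnk by 0.83), and macrophage markers rose on 3 and fell on 2 of 8 (Mrc1 rose by 0.36, with Lyz2 at 0.30 not passing). The sums were 32566 to 32883 and 53971 to 58194 for B cell markers and 467506 to 495792 and 591535 to 668618 for macrophage markers. Counted once, 8 of the 12 liver, 2 of the 4 platelet and 1 of the 5 neutrophil probes passed as falls, against 726 of 8504 mRNA probes. None of the lung epithelium, B cell and macrophage probes passed in limma when counted once. Of these, 2, 3 and 1 were higher and 2, 1 and 1 lower at an unadjusted p of 0.05. Markers above background on no lung array included Cdh5, Cr2, Ltf, Selp, Cd163, Marco, Itih1, Itih3 and Fga. In blood, T cell markers stood higher in the NNK-treated rat by a median of 1.68, B cell markers by 2.11, neutrophil markers by 1.00 and macrophage markers by 0.86, whereas erythroid markers differed by -0.43 and platelet markers by -1.11. The summed signals in control and NNK blood were 35904 and 40125 for T cell markers, 338 and 1707 for B cell markers, 15654 and 72509 for neutrophil markers, 57831 and 96147 for macrophage markers, 3783580 and 3647330 for erythroid markers and 153728 and 88450 for platelet markers, with Cd28, Cr2 and Selp among those above background on neither array. The part of these cell types in the ribosomal protein values was not tested.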

How the data were processed

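RNA of 6 lung and 2 blood samples of male F344 rats was hybridised by the authors to 1-colour Agilent arrays, read with Agilent Feature Extraction 10.5.1.1 per the submitters' processing notes. The deposited scanner files hold processed signal intensity per spot, median intensity and background. The deposited value table holds the authors' quantile-normalized log2 values, used as an alternative. Here the processed signals were log2-transformed, quantile-normalized within lung and within blood, stripped of spots marked as outliers, and averaged per probe. Quantile normalization ran within tissues since blood had another signal distribution. A probe entered the lung test when well above background on at least 3 of 6 arrays with 2 values per group, and the blood comparison with at least 1 of 2 arrays. Groups were compared with limma 3.58.1 in R 4.3.3, with Benjamini-Hochberg adjustment over 12471 probes, and the script was tested on simulated data. Blood was compared by a fold of at least 2, with no test. Array number limits the precision. Accessions were named through RefSeq. The labels call the tissues matched, and deviations of same-numbered normal and tumor arrays correlated at 0.14, -0.04 and 0.16 over 11359 probes. The description of the NNK blood sample repeats that of a tumor, while its title, source and tissue name blood, which was followed.

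Members and lists were chosen with earlier results of these data known. The lists were ribosome proteins outside the naming rule, of which Fau is given, elongation, initiation and biogenesis factors, the mitochondrial ribosome, S6 kinases and cap regulators, and markers of 10 cell types or states. Named with values were the 6 largest rises and falls of core genes in lung and in blood, all paralogs, the P stalk, Rpsa, Rps6, Rpl5 and Rpl11, members below background on a whole group, the 2 largest rises and falls called per list and the 2 brightest markers per list. Alternatives were other normalizations, normexp with an offset of 50, a floor of 5, other filters, the methods' t-test, blocks for replicate number and slide, near-identical arrays counted once and each lung array left out. Some items are not reported here.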

Additional observations from a re-analysis of the deposited data

How the results depend on the processing

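In lung, 44 members rose and 1 fell. Between 37 and 60 rose, and 1 or 2 fell, with marked spots kept and under every other normalization, background correction, floor and filter. The same range held with the methods' t-test and adjusted p and with the replicate block (37, median 0.38). It also held without each lung array in turn (37 to 43 rises, 1 to 2 falls, median 0.35 to 0.40). Calls with the slide as a block are not given, since that comparison rests on tumor array 1. The paired form of the methods' t-test gave 29 rises, and near-identical arrays counted once gave 0 rises (11 at an unadjusted p of 0.05) with a median of 0.38, the latter comparison having fewer samples. A fold of at least 2 left 7 rises, with adjusted or unadjusted p and with the methods' t-test, and 5 with its paired form. There were 2 falls with quantile normalization over all 8 arrays, with a filter on all 6 arrays and without tumor array 3 (each adding Rpl34), with the methods' t-test (adding Rplp1) and without normal array 3 (adding Rpsa). The median was 0.41 with marked spots kept, 0.49 under the 75th percentile shift, 0.53 over all 8 arrays, 0.63 for the deposited normalized values and 0.37 with the slide as a block. Not all of the 34 named lung results had a call to lose. Of those called, 17 lost it with near-identical arrays counted once, and only Rpl12, Rpl35, Rpl4, Rps13 and Rps4y2 kept it there. Of those not called, 7 gained a call in at least 1 setting, Rpl5 only in fits that rest on tumor array 1. None changed sign while called. The replicate block took the call from 1 of the 34 results, Rpl31 (adjusted p = 0.0544).

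In blood, the 75th percentile shift gave 4 members 2-fold higher, 14 lower and a median of -0.40. It left 21 of 73 members above 0, against 57 in the main setting, so the sign of single genes depended on the scaling. Normalization over all 8 arrays gave 9 higher and 0.33, the deposited normalized values 7 higher and 0.35, and no filter 2 lower. The causes were not tested. Signals near background, as for Rpl10, and the agreement of near-identical arrays limit what these 8 arrays can show.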
